A study of Sus scrofa with 207 samples.

Results

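The enzymes that build fatty acids and store them as triglyceride were examined in muscle of 207 crossbred commercial pigs. The list named 10 genes: SCD, FASN, ACACA, ACLY, ME1, ELOVL6, ACSS2, AGPAT2, DGAT2 and LPIN1. Probe sets whose only gene symbol was one of these measured 9 of them, out of 6765 genes with such a probe set on the array, and ACLY was not analysed here. In all 19 probe sets stood for the 9 genes: 4 each for FASN and ELOVL6, 2 each for ACACA, ME1, ACSS2 and LPIN1, and 1 each for SCD, AGPAT2 and DGAT2. The probe set with the highest mean over the arrays stood for each gene, and the others were used as a check of it.

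The animals formed a single group from a Pix(DLxDE) herd, with no treatment or control arm in the labels, and muscle was sampled when they were slaughtered, at 110 kg on average. Each animal was hybridised to 1 Affymetrix Porcine Genome Array, which reads a transcript by a set of short probes, and the values are log2 expression values with a floor at 4. The labels gave each pig's drip loss, the share of weight that a sample of longissimus muscle lost while hanging, and for all but 8 pigs the fat area on the same muscle. Fat area was 15.0 ± 3.15 cm2 (SD, all pigs but 8), from 8.1 to 26.7 with a median of 14.5, and drip loss was 5.37 ± 2.22% (SD, n = 207), from 1.45 to 10.82 with a median of 5.26. The animals are the replicates, and no age, sex, sire or slaughter day was taken from the labels here. EIF1AY expression served as a covariate only in the alternative settings described at the end.

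Fatty acid synthesis starts from citrate, which the cytosol cleaves to acetyl-CoA. Acetyl-CoA carboxylase makes malonyl-CoA from it, fatty acid synthase joins these units into palmitate with NADPH as the reductant, an elongase lengthens palmitate, and stearoyl-CoA desaturase puts a double bond into the product. The acids are then joined to glycerol in steps that end with triglyceride. In pigs the main site of this synthesis is adipose tissue, and muscle holds fat cells between its fibres, so that a muscle sample carries RNA of both. In such bulk samples fewer cells of a type and less RNA per cell cannot be told apart.

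Array medians lay between 5.96 and 6.18, and 1.43% of all values stood at the floor. Among the members 1 value was at the floor, on 1 array, for a secondary FASN probe set. The skeletal muscle marker CKM, muscle creatine kinase, had a mean of 14.11 ± 0.04 (SD, n = 207), and all 11 measured muscle markers were above the floor in every pig. Precision here is limited by how many arrays there are. A set of 24 arrays correlated less with the rest than most. Some results that rest on them are given with and without them, while the ranges of values include them.

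FASN, fatty acid synthase, ranged from 6.50 through a median of 8.85 to 11.42 over the 207 pigs. Its mean was 8.84 ± 0.86 (SD, n = 207), and the span from the lowest to the highest pig was 4.92 log2 units, or 30.3-fold. SCD, stearoyl-CoA desaturase, ranged from 4.91 through a median of 9.22 to 12.46, with a mean of 9.17 ± 1.20 (SD, n = 207) and a span of 7.55 log2 units. The values of both genes form one broad cloud with a long tail at either end. Even between the pigs at the 10th and 90th percentiles the difference was 8.86-fold for SCD and 4.71-fold for FASN. By SD, SCD ranked 46 among the 23935 tested probe sets, and 99.8% of them had a smaller spread than SCD and 99.4% a smaller one than FASN.

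ELOVL6, which elongates palmitate, ranged from 5.71 through a median of 7.27 to 9.65 (mean 7.33 ± 0.69, SD, n = 207), a span of 3.94 log2 units. DGAT2, which adds the last acyl chain of triglyceride, ranged from 4.64 through a median of 6.27 to 8.61 (mean 6.34 ± 0.75, SD, n = 207), a span of 3.97 log2 units. LPIN1, the phosphatase that makes diacylglycerol and that also acts as a coactivator of fat oxidation genes, ranged from 7.34 through a median of 9.99 to 12.18 (mean 9.84 ± 0.81, SD, n = 207). These 3 genes spread almost as widely as FASN, with smaller SDs in 98.8%, 99.1% and 99.3% of tested probe sets.

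ACACA, acetyl-CoA carboxylase alpha, which supplies malonyl-CoA, ranged from 4.48 through a median of 5.94 to 6.81 (mean 5.84 ± 0.46, SD, n = 207). Its lower tail was long: most pigs lay close to the median and a smaller number stood well under it. ME1, the cytosolic malic enzyme that makes NADPH, ranged from 7.88 through 8.88 to 10.29 (mean 8.88 ± 0.29, SD, n = 207). ACSS2, which makes acetyl-CoA from acetate, ranged from 8.07 through 9.01 to 9.64 (mean 8.98 ± 0.24, SD, n = 207). AGPAT2, which adds the middle acyl chain of phosphatidic acid, ranged from 7.60 through 8.58 to 9.11 (mean 8.57 ± 0.23, SD, n = 207). ACSS2 and AGPAT2 varied about as much as an ordinary probe set on the array, whose median SD was 0.25, and 43.1% and 41.6% of probe sets varied less. ME1 was wider, with a smaller SD in 71.7% of probe sets. In all, 6 of the 9 genes lay in the tenth of probe sets with the widest spread, which starts at an SD of 0.38.

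**Figure D1:**
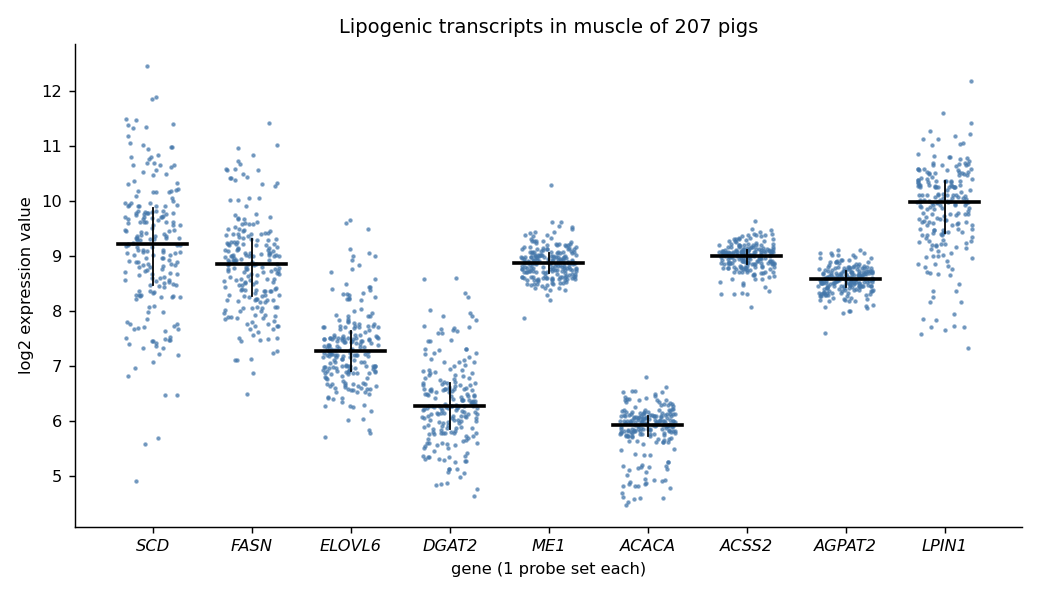
Log2 expression value (vertical axis) of the 9 measured genes (horizontal axis), 1 point per pig (n = 207). The long bar is the median and the vertical line runs from the lower to the upper quartile. SCD spans 4.91 to 12.46, while ACSS2 and AGPAT2 stay within 8.07 to 9.64 and 7.60 to 9.11.

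FASN, SCD, ELOVL6 and DGAT2 rose and fell together from pig to pig. Pearson's r between FASN and SCD was 0.88 and Spearman's rho 0.87 (n = 207). FASN followed ELOVL6 with r = 0.87 and rho = 0.86, and DGAT2 with r = 0.86 and rho = 0.85. SCD followed ELOVL6 with r = 0.83 and rho = 0.83, and DGAT2 with r = 0.82 and rho = 0.83. The loosest of these 6 pairs was ELOVL6 with DGAT2, at r = 0.78 and rho = 0.74. For each of the 6 pairs the two-sided permutation p of r and of rho was 1e-05, the smallest that 100000 permutations can give. The shared variance ran from 61.4% for ELOVL6 with DGAT2 to 78.2% for FASN with SCD.

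Each pair was also read from limma regressions of all probe sets on each of its genes, with Benjamini-Hochberg adjustment over the 23934 other probe sets, and called where both adjusted p-values were under 0.05. In these fits 9.75% of all probe sets passed with FASN, 8.16% with SCD, 4.24% with ELOVL6 and 7.06% with DGAT2. The larger limma adjusted p of a pair was between 7.2e-67 for FASN with SCD and 1.2e-41 for ELOVL6 with DGAT2. Of all 36 pairs among the 9 genes, 15 passed, 14 with a positive and 1 with a negative sign. The 6 pairs of this quartet were the only ones with r above 0.7, and the median over the 36 was 0.15.

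The quartet held in each way the animals were split. Without the 2 pigs farthest from the median, r for FASN with SCD was 0.88 and for ELOVL6 with DGAT2 it was 0.76. The numbers in the sample titles, whose meaning the labels do not give, fall into a higher series of 33 pigs and a lower series of all others, and into 10 blocks of 100 numbers. FASN with SCD had r = 0.88 in the lower series, 0.91 in the higher series and 0.88 with values centred within blocks. All 6 pairs had a positive r in all 10 blocks, and the lowest r of any block was 0.64, for SCD with ELOVL6. All 66 values from alternative settings of these 6 pairs kept the sign and the call.

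**Figure D2:**
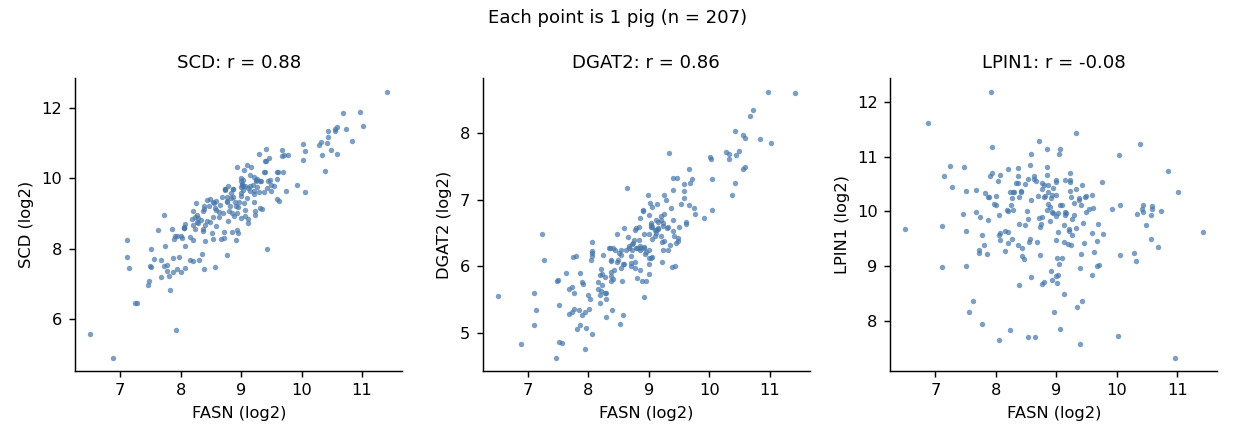
SCD, DGAT2 and LPIN1 (vertical axes, log2 expression value) against FASN (horizontal axis, log2 expression value), 1 point per pig (n = 207). SCD and DGAT2 lie along a rising line (r = 0.88 and 0.86), while LPIN1 forms a round cloud (r = -0.08).

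A few pigs show the pattern in single animals. The pig highest in SCD, at 12.46, was also highest in FASN at 11.42, ELOVL6 at 9.65 and ME1 at 10.29, and was the next to highest in DGAT2 at 8.59. Its fat area, 13.4 cm2, was below the median, and its ACACA value, 4.87, was the 14th lowest. The pig lowest in SCD, at 4.91, was rank 2 from the bottom in FASN at 6.88, rank 4 in ELOVL6 at 6.02 and rank 3 in DGAT2 at 4.84. LPIN1 was high in some of these animals and low in others. The pig highest in SCD had an LPIN1 value of 9.62, below the median, and the pigs lowest in FASN and DGAT2 had 9.68 and 9.95. The pig lowest in SCD had the next to highest LPIN1 value, 11.61. The pig lowest in ELOVL6, at 5.71, was rank 3 from the bottom in SCD and had the highest LPIN1 value, 12.18. The pig highest in DGAT2, at 8.61, was rank 2 from the top in SCD and had the lowest LPIN1 value, 7.34. The pigs lowest in SCD, FASN and ELOVL6 were all on arrays among the 24 with low correlation to the rest, whose median SCD value was 8.72 against 9.31 on the other arrays. Without those 24 arrays the SD of SCD was 1.14 and that of FASN 0.83.

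ME1 moved with the quartet, less tightly. It had r = 0.47 with ELOVL6 (rho = 0.39), 0.47 with FASN (rho = 0.41), 0.44 with SCD (rho = 0.38) and 0.38 with DGAT2 (rho = 0.27). The permutation p of r was 1e-05 for these 4 pairs, the smallest possible, and each had a positive r in all 10 blocks. The limma adjusted p was at most 1.5e-05, where 5.34% of all probe sets passed in the regression on ME1. In the 33 pigs of the higher series alone, ME1 had r = 0.43 with FASN and the limma adjusted p was 1.00.

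ACSS2 and AGPAT2 moved with each other rather than with the quartet. Their r was 0.48 and rho 0.43 (permutation p = 1e-05 for both, limma adjusted p = 3.4e-11), with r = 0.51 in the lower series and 0.11 in the higher series. These 2 genes were called with a large part of the array: 41.8% of all probe sets passed with ACSS2 and 31.5% with AGPAT2, so that calls with either were common across the array. ACSS2 had r = -0.63 and AGPAT2 r = -0.40 with the first principal component of all probe sets, against -0.14 for FASN. FASN with ACSS2 (r = 0.29, limma adjusted p = 0.00090) and FASN with AGPAT2 (r = 0.22, limma adjusted p = 0.025) both lost the call without the 24 low-correlation arrays, at limma adjusted p = 0.068 and 0.60. ME1 with ACSS2 had r = 0.28 (limma adjusted p = 0.0045), and lost the call without the 2 farthest pigs, at limma adjusted p = 0.058.

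LPIN1 stood apart from the other members. Its only call was a negative one with SCD, r = -0.22 and rho = -0.22 (permutation p = 0.0011 and 0.0018, limma adjusted p = 0.019), where 13.2% of all probe sets passed in the regression on LPIN1. Without the low-correlation arrays the limma adjusted p was 0.14, and in the lower series alone it was 0.25. The second LPIN1 probe set had r = -0.27 with SCD and -0.07 with FASN, given without a test. The other LPIN1 pairs had r between -0.15 and 0.07. ACACA had no call with any member and its r ran from -0.11 with DGAT2 to 0.16 with ACSS2, although 10.1% of all probe sets passed in the regression on it.

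**Figure D3:**
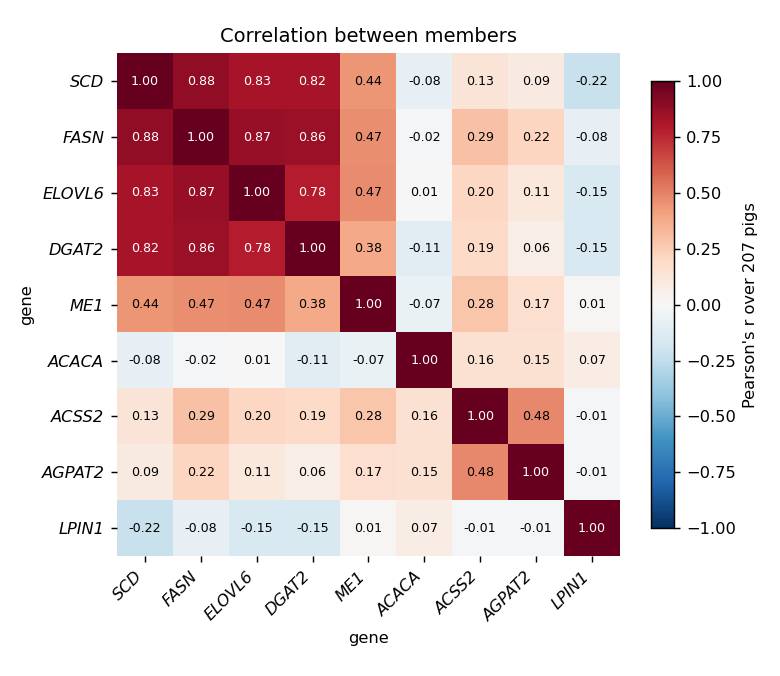
Pearson's r over 207 pigs for each pair of the 9 genes (both axes), with colour from blue at -1 to red at 1. SCD, FASN, ELOVL6 and DGAT2 form a block with r from 0.78 to 0.88, ME1 joins it at 0.38 to 0.47, and the pairs with ACACA or LPIN1 stay between -0.22 and 0.16.

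Where a gene had several probe sets, they did not always follow each other. The dimmer FASN sets had r = 0.73, 0.38 and 0.19 with the brightest, and those of ELOVL6 had 0.73, 0.63 and 0.36. The second sets of ACSS2, LPIN1 and ME1 had r = 0.67, 0.61 and 0.60 with the first. The ACACA sets had only r = 0.15 with each other, and the second had an SD of 0.20 where the first had 0.46. The long lower tail of ACACA was thus a feature of 1 of its probe sets.

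That tail was followed further. With a limit of 5.5, chosen after the values were seen, 36 of 207 pigs lay below. Of them 17 were among the 37 pigs of blocks 1 and 2 (a block number is the title number without its last pair of digits), and none were among the 41 pigs of blocks 0 and 6. Between-block differences took up 20.2% of the variance of ACACA (limma moderated F, adjusted p = 3.0e-05), more than in 97.9% of probe sets, whose median was 7.84%. Many probe sets differed between blocks: 38% of all passed that test. Among the members AGPAT2 (17.9%), LPIN1 (14.8%), ACSS2 (13.3%), SCD (11.1%) and DGAT2 (9.41%) passed as well, with limma adjusted p from 0.00020 to 0.044, and ME1 (8.42%), FASN (7.43%) and ELOVL6 (6.25%) did not. Whether the blocks stand for families, days or laboratory runs was not tested.

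**Figure D4:**
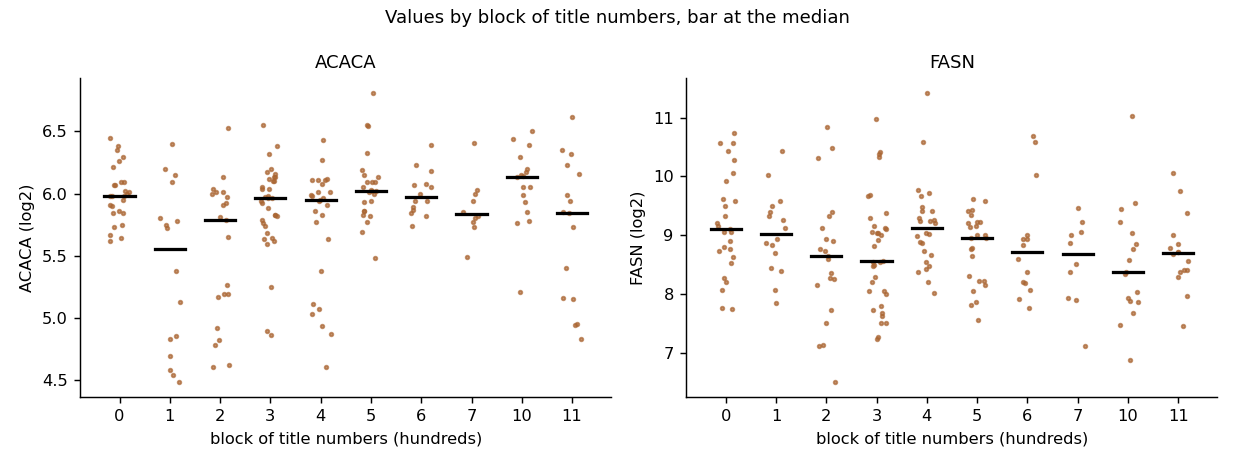
Log2 expression value of ACACA (left) and FASN (right) on the vertical axes, by block of 100 title numbers on the horizontal axes, 1 point per pig (n = 207), with a bar at the block median. ACACA block medians run from 5.55 to 6.13 and low values crowd in some blocks, while FASN values overlap in every block.

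The gene most like ACACA outside the list was LHX1, a homeobox transcription factor of the developing kidney and brain, with r = 0.89 and rho = 0.77 over 207 pigs, and r = 0.87 centred within blocks. LHX1 ranged from 4.28 through a median of 7.44 to 8.12. In the reference gene order LHX1 lies near ACACA with 1 protein-coding gene, AATF, between them, and AATF had r = -0.04 with ACACA. Of the 12 nearest protein-coding genes, 6 on each side, 6 were measured, and apart from LHX1 their r with ACACA ran from -0.04 to 0.14. In all, 12 probe sets had r above 0.7 with ACACA, of which 1, that of LHX1, carries a single gene symbol and none is a member. PRKD2, a protein kinase D, followed at r = 0.66 and IQGAP3, a scaffold protein, at r = 0.61.

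Outside the list, the gene that followed the quartet most closely was ALDOC, an aldolase of glycolysis. Its r was 0.87 with DGAT2, 0.79 with FASN, 0.71 with SCD and 0.66 with ELOVL6 (n = 207), and in each case it was the highest of all genes outside the list. SFRP1, a secreted modulator of Wnt signalling, had r = 0.80 with DGAT2, 0.70 with SCD and 0.69 with FASN. CIDEA, a lipid droplet protein, had r = 0.77 with DGAT2, 0.67 with FASN and 0.63 with ELOVL6, and MGST1, a microsomal glutathione transferase, had 0.68 with SCD and 0.65 with ELOVL6. These values are descriptions over the same arrays, and with values centred within blocks ALDOC had r = 0.87 with DGAT2 and 0.79 with FASN.

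Other members had other company. ACSS2 was most like SDHA (r = 0.75) and NDUFA13 (r = 0.75), subunits of the respiratory chain, and BSG (r = 0.72), a chaperone of lactate transporters. AGPAT2 was most like ARAF (r = 0.62), GATAD2A (r = 0.62) and COX10 (r = 0.61). LPIN1 was most like PLIN2, a coat protein of lipid droplets, at r = 0.47, then GORASP2 (r = 0.44) and SLC6A8 (r = 0.43), the creatine transporter. ME1 was most like MTMR3 (r = 0.44), MAP3K4 (r = 0.44) and CDS2 (r = 0.42), none of them above its r with FASN or ELOVL6.

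By likeness to the mean of the 9 standardised members, the leading genes outside the list were ALDOC (r = 0.72), SLC25A1 (0.69), AGPAT1 (0.63), PC (0.59), SFRP1 (0.58), CIDEA (0.57), AGT (0.56), LAMB2 (0.56), SGK2 (0.54), VSTM2L (0.54), APCDD1 (0.52) and AMOTL1 (0.49). SLC25A1 exports citrate from mitochondria, PC, pyruvate carboxylase, refills the citrate cycle, and AGPAT1 is the close relative of AGPAT2. AGT is angiotensinogen. These are the 12 highest of all genes outside the list and, like the r values for single genes, carry no test.

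Related gene lists were read in the regression on FASN, in which 8.60% of genes with a probe set of their own passed upward and 4.73% downward, with a median r over all genes of 0.02. Among the other 8 members 6 passed upward, which restates the pairs above, and the median r was 0.38. Of 13 measured genes that supply citrate, NADPH and glycerol, 4 passed upward and 1 downward (median r = 0.13). Those upward were SLC25A1 (r = 0.64), PGD of the pentose phosphate path (r = 0.55), PC (r = 0.50) and IDH1, the cytosolic isocitrate dehydrogenase (r = 0.38). The one downward was NNT, the mitochondrial transhydrogenase, at r = -0.21.

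Of 9 measured regulators of fat synthesis 2 passed upward and none downward (median r = 0.15). They were SREBF2, the sterol-responsive transcription factor, at r = 0.41, and INSIG1, which holds the SREBP proteins in the endoplasmic reticulum, at r = 0.35. SREBF1, the transcription factor known as the main driver of FASN and SCD, ranged only from 5.06 through 5.68 to 6.14 and had r = 0.01 with FASN (limma adjusted p = 0.96). Its probe set was dim (mean 5.67, median of probe set means 6.10), which limits what that r can show. THRSP was not analysed here. Of 9 measured cholesterol synthesis genes 2 passed upward, FDPS (r = 0.30) and SC5D (r = 0.28), with a median r of 0.13.

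Of 23 other enzymes of fatty acid and triglyceride synthesis 5 passed upward and 2 downward (median r = 0.11). AGPAT1 led at r = 0.58, followed by the desaturase FADS1 (r = 0.35), the lipase PNPLA3 (r = 0.30), the elongase ELOVL1 (r = 0.26) and DGAT1 (r = 0.20), the other enzyme of the last triglyceride step. ACSL1 (r = -0.20) and ACSL4 (r = -0.20), which activate fatty acids, passed downward. GPAM, which adds the first acyl chain to glycerol, also spread widely, from 4.53 through 7.20 to 8.49 (SD 1.07, n = 207), and yet had r = 0.13 with FASN (limma adjusted p = 0.25).

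Of 13 measured adipocyte markers 7 passed upward in the regression on FASN and none downward (median r = 0.23), among them ADIPOQ, adiponectin, at r = 0.57, FABP4, the fat cell fatty acid carrier, at 0.37, and LEP, leptin, at 0.33. The other 6 did not pass, among them RETN, resistin, at r = -0.11 and ADRB3, a beta-adrenergic receptor, at -0.16. PLIN1 was not analysed here. No adipocyte marker reached the floor in any pig, and the sum of their log2 values ran from 93.2 through 97.6 to 105.3. The mean of the standardised adipocyte markers had r = 0.73 with DGAT2, 0.58 with FASN, 0.56 with SCD, 0.47 with ELOVL6 and 0.29 with ME1, against -0.07 with ACACA, -0.10 with LPIN1 and AGPAT2 and 0.13 with ACSS2. With that mean held constant, r was 0.83 for FASN with SCD, 0.83 for FASN with ELOVL6, 0.79 for FASN with DGAT2, 0.77 for SCD with ELOVL6, 0.74 for ELOVL6 with DGAT2 and 0.73 for SCD with DGAT2. SREBF2 had r = 0.54 with FASN on the same footing. Of the 13 adipocyte markers 3 then passed upward and 2 downward. CIDEA had r = 0.43, LEP 0.36 and ADIPOQ 0.27 (limma adjusted p = 1.2e-08, 6.7e-06 and 0.00092). FABP4 had -0.02, while RETN had -0.40 and ADRB3 -0.29, and RETN and ADRB3 passed downward (limma adjusted p = 2.5e-07 and 0.00050). All of these markers are themselves part of the mean held constant.

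Among markers of other cells, upward calls were 2 of 5 fibroblast markers (THY1 and DCN), 1 of 6 endothelial markers (VWF) and none of 5 macrophage, 5 blood cell or 11 skeletal muscle markers. Downward calls were DES and NEB among the muscle markers and HBB among the blood cell markers. Some muscle markers barely varied, such as CKM (SD 0.04) and MYH2 (SD 0.05), against 0.22 for DES and a median of 0.25 over probe sets. That limits what their lack of upward calls can show. The part of these cell types and of fat cells in the co-variation was not tested. The adipocyte mean averages 13 markers, of which 7 passed with FASN, and is a rough measure of fat cell content. Holding it constant therefore does not test the part of fat cells.

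The same regression on FASN was run without the 24 low-correlation arrays, where 338 of 6764 genes passed upward and 72 downward. The counts stayed at 4 upward and 1 downward for citrate, NADPH and glycerol supply, with SLC25A1, PGD, PC, IDH1 and NNT again, and at SREBF2 and INSIG1 for the regulators. Of the adipocyte markers 6 passed, all but CFD of the earlier 7. The other synthesis enzymes lost DGAT1, ACSL1 and ACSL4, cholesterol synthesis lost FDPS, and the members lost ACSS2 and AGPAT2. VWF, DCN, DES, NEB and HBB no longer passed either, and THY1 still did. With 5 principal components as covariates, where 5.38% of genes passed upward and 3.19% downward, the counts went another way: 4 of 5 fibroblast markers passed upward (COL1A2, DCN, LUM and THY1), 6 of 13 adipocyte markers did, and 4 of 9 cholesterol synthesis genes did (FDPS, HMGCS1, MSMO1 and SC5D). The regulators then had 3 upward calls and 1 downward.

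No member followed fat area past the threshold. Over all probe sets 0.121% passed in the limma regression on fat area, and of the 19 probe sets of the list none did. At an unadjusted limma p under 0.05 there were 2 of the 19, both of ME1, and 1692 of all 23935 probe sets. SCD ran from 6.47 through a median of 9.21 to 11.49 in the 52 pigs with a fat area of at most 12.7 cm2, and from 7.48 through 9.56 to 11.41 in the 50 pigs with at least 17.05 cm2. FASN ran from 7.11 through 8.72 to 11.02 in the former and from 7.50 through 9.0 to 10.84 in the latter. The low-fat and high-fat pigs overlap over nearly their whole range for both genes.

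The SCD slope was 0.14 ± 0.08 log2 units per SD of fat area (SE, all pigs but 8, limma adjusted p = 0.78), with a 95% interval from -0.03 to 0.31. Its r was 0.12 and rho 0.12 (permutation p = 0.11 and 0.088), and r was 0.13 without the 2 pigs of most extreme fat area. The FASN slope was 0.09 ± 0.06 (SE, limma adjusted p = 0.81) with an interval from -0.03 to 0.21. ELOVL6 and DGAT2 had slopes of 0.01 ± 0.05 and 0.04 ± 0.05 (limma adjusted p = 0.98 and 0.94). ME1 had the smallest unadjusted p of the 9 genes, 0.040, with a slope of 0.04 ± 0.02 (limma adjusted p = 0.68) and r = 0.14 (permutation p = 0.042). AGPAT2 followed with 0.03 ± 0.02 (limma adjusted p = 0.72), while ACACA, ACSS2 and LPIN1 had limma adjusted p from 0.88 to 1.00. The intervals leave room for a change in SCD of up to 0.31 log2 units per SD of fat area.

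Drip loss gave no call among the members either, although 4.61% of all probe sets passed in the limma regression on it. LPIN1 had a slope of -0.09 ± 0.06 log2 units per SD of that trait over 207 pigs (SE, limma adjusted p = 0.34), with r = -0.12 and rho = -0.13 (permutation p = 0.093 and 0.053). Its median was 10.04 in the 52 pigs with a drip loss of at most 3.59% and 9.82 in the 52 pigs with at least 7.2%. The ranges, 7.86 to 11.61 and 7.59 to 11.18, overlap. With blocks as a covariate the LPIN1 slope was -0.04 ± 0.05, and with 5 principal components 0.02 ± 0.05 (SE, limma adjusted p = 0.80 and 0.95). ME1 had a slope of -0.04 ± 0.02 (SE, limma unadjusted p = 0.060, adjusted p = 0.28), with r = -0.13 and rho = -0.15 (permutation p = 0.062 and 0.033). Its second probe set had a slope of -0.05 ± 0.02 (SE, limma unadjusted p = 0.0095, adjusted p = 0.11). The second brightest FASN set had one of 0.03 ± 0.01, opposite in sign to the brightest (SE, limma unadjusted p = 0.022, adjusted p = 0.17). Of all 23935 probe sets, 4624 had an unadjusted limma p under 0.05 for drip loss. For SCD, FASN, ELOVL6 and DGAT2 the slopes were 0.01 ± 0.08, -0.05 ± 0.06, -0.06 ± 0.05 and -0.02 ± 0.05, with limma adjusted p from 0.50 to 0.97. With 5 principal components as covariates they were -0.11 ± 0.08, -0.08 ± 0.06, -0.08 ± 0.05 and -0.10 ± 0.05, and none passed (limma adjusted p from 0.62 to 0.82).

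ME1 was the member whose slopes on the traits differed most for its spread. In a fit with both traits its fat area slope exceeded its drip loss slope by 0.07 ± 0.03 (SE, all pigs but 8, limma adjusted p = 0.24), and for the second probe set by 0.09 ± 0.03 (SE, limma adjusted p = 0.12). Neither passed, and none of the 19 probe sets did, where 0.347% of all probe sets passed for this difference. In the lists around the members fat area gave no call, and drip loss gave 2: GPD1, glycerol-3-phosphate dehydrogenase, rose by 0.04 ± 0.01 log2 units per SD (SE, limma adjusted p = 0.048), and GPAT4, a glycerol acyltransferase, fell by 0.08 ± 0.02 (SE, limma adjusted p = 0.026). Without the 24 low-correlation arrays neither call held, at limma adjusted p = 0.39 for GPD1 and 0.066 for GPAT4, and with blocks as a covariate neither did, at 0.13 and 0.12. SREBF1, INSIG1, DGAT1 and GPAM did not pass for either trait, and neither did FABP4, ADIPOQ or LEP.

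**Figure D5:**
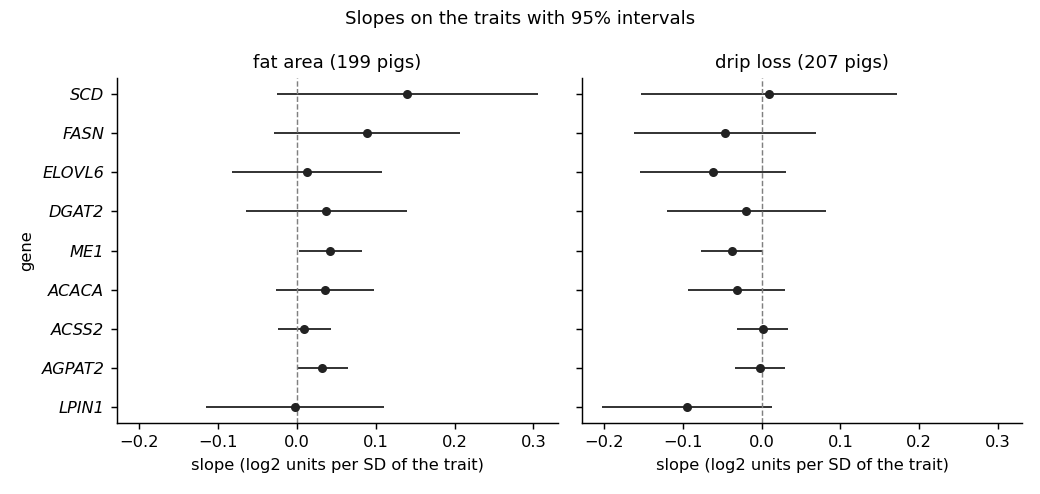
Slope of each gene (vertical axis) on fat area in all pigs but 8 (left) and drip loss in 207 pigs (right), in log2 units per SD of the trait (horizontal axes), with 95% intervals. None of the 9 passed the adjusted threshold for either trait, and the widest intervals, those of SCD, run from -0.03 to 0.31 and from -0.15 to 0.17.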

How the data were processed

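Per the labels' protocols, TRI Reagent was used to isolate total RNA, which after DNase treatment was made into biotinylated cRNA. GCOS 1.1.1 and PLIER are named in the submitters' processing notes. The authors deposited log2 values per probe set, which were used as they stand. Any scaling between arrays is not given in the sources used here. The table holds 24123 probe sets, and leaving out 188 controls gave 23935 for testing. In the array annotation 10069 tested probe sets have 1 symbol, 198 several and 13668 none. Gene numbers tied all 9 members to the reference gene table, which gave gene order only.

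Slopes came from limma 3.58.1 (lmFit, eBayes) under R 4.3.3, two-sided, with Benjamini-Hochberg adjustment over all tested probe sets and a threshold of 0.05. Traits and members used as regressors were scaled to SD 1. Permutation tests were two-sided with 100000 permutations. Tests covered 36 pairs, and the 19 probe sets of the 9 genes by both traits and by the difference of the slopes. Block differences and the lists in the regression on FASN were tested as well. Correlations without 2 animals leave out those farthest from the median of the x variable. An array counted as low in correlation where its median correlation with the others lay over 3 scaled MADs below the typical one. The regressions were tested on simulated data. Named were all members, the 12 genes most like their mean, the 3 most like each, list genes passing for a trait, SREBF1, THRSP, INSIG1, DGAT1, GPAM, FABP4, ADIPOQ, PLIN1 and LEP. Other list genes that passed in a regression on FASN, and LHX1's neighbour AATF and the muscle marker CKM were added after their values were seen. The members, lists and rules were chosen with earlier results of these data known.

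Alternatives were quantile normalization, bright probe sets alone, leaving out low-correlation arrays or the farthest animals, normal scores of the trait, trended robust eBayes, and covariates: title-number blocks or series, 5 principal components, the adipocyte mean, EIF1AY, the other trait, and, chosen after seeing the data, the difference of 3′ and 5′ control signals.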

Additional observations from a re-analysis of the deposited data

How the results depend on the processing

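The number of member pairs called was 15 and stayed between 12 and 18 under every alternative run on all or most pigs. In the 33 pigs of the higher number series alone it was 6, where fewer samples were fitted, and those were the 6 pairs of FASN, SCD, ELOVL6 and DGAT2. Of 396 pair values under alternatives, 340 kept sign and call, 21 lost the call, 11 gained it, 24 uncalled ones changed sign and 0 called ones did. The count of 6 widely spread genes was the same under quantile normalization, with blocks as a covariate and without the low-correlation arrays. That count refers to the probe set with the highest mean of each gene. For the members' slopes on fat area, drip loss and their difference, no call was gained under any alternative: 3, 15 and 1 values changed sign, all of them uncalled. Over all probe sets the number called moved more. For fat area it was 29, with 0 when EIF1AY was a covariate and 91 with 5 principal components. For drip loss it was 1103, with 13 under 5 principal components and 1270 among bright probe sets alone. For the difference it was 83, with 12 under blocks as a covariate and with 73 higher and 60 lower among bright probe sets alone. At an unadjusted p under 0.05 the counts were 1692, 4624 and 3021. ACACA lies below the median brightness and has no value among bright probe sets. No paired analysis was possible because the labels put all animals in 1 group. Signal over background was not given by the deposited values, so that dim probe sets, such as the second ACACA set, limit what can be read from their correlations.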
